A study of Mus musculus with 12 samples.

Results

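Cytotoxic granule genes were followed in naive mouse CD8 T cells that met anti-CD3 and an antibody to LAIR-1. The 8 genes chosen by name were the granzymes Gzma, Gzmb and Gzmm, the pore former Prf1, the proteoglycan Srgn, the protease inhibitors Serpinb6b and Serpinb9, and the membrane protein Nkg7. Of these, 7 were measured among 14323 genes in all, and Gzma was not analysed here. Spleen naive CD8+ T cells were sorted from 3 wild type mice and cultured for 6 h at 100000 cells per well. Wells were coated with 2.5 µg/ml anti-CD3ε (clone 145-2C11) or its isotype control, and with LAIR-1 antibody (clone 2C7, 2.5 µg/ml) or the matching isotype. Each mouse gave 1 library to each of 4 groups, which are named by their antibodies. These are unstimulated isotype and unstimulated anti-LAIR-1 without anti-CD3, and anti-CD3 isotype or anti-CD3 anti-LAIR-1 with it. All 12 libraries thus came from wild type cells of a C57BL/6N background without target cells in the well, and RNA was read near the 3' end by CEL-seq.

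LAIR-1 is an inhibitory receptor that binds collagen, and the immobilised antibody was used to engage it. Killer T cells store their weapons in secretory granules. Perforin makes pores in the target membrane, granzymes enter and cleave proteins of the target, and serglycin, the Srgn product, is the proteoglycan on which granule proteins are packed. Clade B serpins inhibit granzymes that leak into the cytosol of the killer cell, and Nkg7 is a granule membrane protein needed for efficient release. Naive CD8 T cells hold little perforin or granzyme protein and build up granules after activation.

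Libraries held 1781218 to 7725545 counts. The unstimulated isotype group was the shallowest, with a median of 2304214 counts against 6204054 in the anti-CD3 anti-LAIR-1 group. Levels are given as normalized CPM (counts divided by the scaled library total), and 3 counts corresponded to 0.407 to 1.58 CPM depending on the library. The sorted cell type was checked on its markers. All 8 naive CD8 T cell markers were measured, and their summed level was 5027 to 5542 CPM in unstimulated libraries, 1452 to 1550 CPM with anti-CD3 and isotype, and 1789 to 2051 CPM with both antibodies. Markers of NK cells, which carry granules at rest, summed to 0.268 to 3.68 CPM over 4 of 7 listed genes. Over the unstimulated libraries, Fcer1g had 14 counts with isotype and 9 with anti-LAIR-1. Klrb1c had 2 and 0 counts there, Klre1 had 0 and 1, and Tyrobp had 0 and 0. Markers of myeloid, B, CD4 T and mast cells summed to at most 1.59, 9.46, 4.73 and 2.21 CPM. The memory CD8 T cell list, which includes the activation-induced chemokine gene Xcl1, summed to 603 to 690.3 CPM without anti-CD3. Its sums were 16771 to 18897 CPM with anti-CD3 and isotype, and 13276 to 14668 CPM with both antibodies. Most of the sums with anti-CD3 was Xcl1, at means of 17463 CPM with isotype and 13886 CPM with both antibodies. Without anti-CD3 most was Klrd1, at means of 447 CPM with isotype and 433 CPM with anti-LAIR-1. The sums therefore do not describe the list as a set. Of the 9 genes of this list 7 were tested, of which 3 were higher and 1 lower with anti-CD3 and isotype. In stimulated cells 1 was higher (Klrd1) and 1 lower (Xcl1) with anti-LAIR-1, and their part in the granule values was not tested. Since these are bulk libraries, fewer cells that express a gene and less RNA per cell cannot be told apart in any value below.

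The 250 bases before the RefSeq start of a gene (GRCm38.p6, the build also called mm10) were matched for 8 of 8 members. The windows of Gzmb, Prf1 and Nkg7 are shown because the results below turn on these genes, 5' to 3' on the gene's own strand, with capitals on each match to a searched motif on either strand. They lie at chr14:56262335-56262584 (minus strand), chr10:61297586-61297835 (plus strand) and chr7:43436888-43437137 (plus strand).
Gzmb: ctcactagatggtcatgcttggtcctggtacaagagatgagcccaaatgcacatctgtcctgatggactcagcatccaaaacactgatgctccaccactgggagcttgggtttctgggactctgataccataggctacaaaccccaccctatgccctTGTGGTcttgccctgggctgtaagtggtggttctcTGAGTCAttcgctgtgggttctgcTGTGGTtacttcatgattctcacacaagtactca
Prf1: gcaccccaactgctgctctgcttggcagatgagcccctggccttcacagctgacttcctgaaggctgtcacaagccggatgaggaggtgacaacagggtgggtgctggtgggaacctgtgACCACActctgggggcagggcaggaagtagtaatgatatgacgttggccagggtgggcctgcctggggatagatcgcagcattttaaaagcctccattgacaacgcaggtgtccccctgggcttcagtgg
Nkg7: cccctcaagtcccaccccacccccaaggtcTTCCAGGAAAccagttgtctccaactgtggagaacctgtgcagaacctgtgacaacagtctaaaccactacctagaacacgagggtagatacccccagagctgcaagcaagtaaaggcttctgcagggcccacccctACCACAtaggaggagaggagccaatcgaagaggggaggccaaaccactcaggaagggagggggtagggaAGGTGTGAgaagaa
The short consensus letters of AP-1, GAS (a STAT element), NFAT, RUNX, CRE, NF-kB, T-box and TATA elements were searched on both strands, and are spelled out below except for NF-kB.

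Gzmb was the 1 member of 8 with a match to the AP-1 letters TGANTCA, which began 58 bases before the start, and these occurred in 6.75% of all 32851 promoter windows. It also held RUNX letters at 93 and 34 bases before the start. The RUNX letters TGTGGT were found in 6 of 8 members, against 14.0% of all windows, and the Prf1 window held them 130 bases before the start and no other match. Nkg7 held the T-box letters AGGTGTGA 14 bases before the start (1 of 8 members, 1.12% of all windows) and the GAS letters TTCNNNGAA (2 of 8 members, with Gzmm, against 7.02%), which overlap its NFAT match. The NFAT letters GGAAA occurred in 6 of 8 members and in 55.6% of all windows. TATA letters (TATAAA) occurred in Srgn alone of the members and in 12.4% of all windows. CRE letters (TGACGTCA) and NF-kB letters occurred in 0 members and in 1.55% and 1.21% of all windows. Member counts are per gene while the percentages are per window, so Srgn and Gzmm, with more than 1 window, were more likely to be counted. Distances are from RefSeq starts, and the GENCODE annotation places some starts elsewhere. For Nkg7 its start is 43437073, inside the window shown. A match is a description of the letters in this window only.

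Gzmb, the granzyme that cleaves after aspartate and triggers target cell death, was near the limit of detection without anti-CD3. Unstimulated isotype libraries held 1, 0 and 0 counts (mice 1, 2 and 3), and unstimulated anti-LAIR-1 libraries held 4, 1 and 1 counts. With anti-CD3 and isotype the counts were 136, 144 and 328, equal to 41.8, 30.9 and 53.1 CPM. In anti-CD3 anti-LAIR-1 libraries the counts were 61, 39 and 22, equal to 8.27, 6.63 and 4.65 CPM. Every anti-CD3 anti-LAIR-1 library therefore lay below every anti-CD3 isotype library and above every unstimulated library, and the means with anti-CD3 were 6.52 ± 1.81 and 41.9 ± 11.1 CPM (SD, n = 3).

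In stimulated cells, Gzmb was 6.27-fold lower with anti-LAIR-1 than with isotype (log2 fold change -2.65, SE 0.22, edgeR adjusted p = 1.62e-06). The log2 difference was -2.27, -2.14 and -3.39 in mice 1, 2 and 3. Among all 8800 genes tested in this comparison, Gzmb had the log2 fold change of rank 2 from the lowest. The gene still rose with anti-CD3 under anti-LAIR-1, 11.7-fold over the unstimulated anti-LAIR-1 libraries (log2 3.55, SE 0.52), from 6 to 122 counts over 3 libraries. Gzmb passed the filter on low counts only through its stimulated libraries, so a rise with anti-CD3 was a condition of being tested. With isotype the rise was from 1 to 608 counts, a ratio per library size of 321 with a 95% counting interval of 57.4 to 12695. Because 1 count stands behind the lower value, the size of that rise is poorly known, and the interval leaves out the spread between mice.

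**Figure D1:**
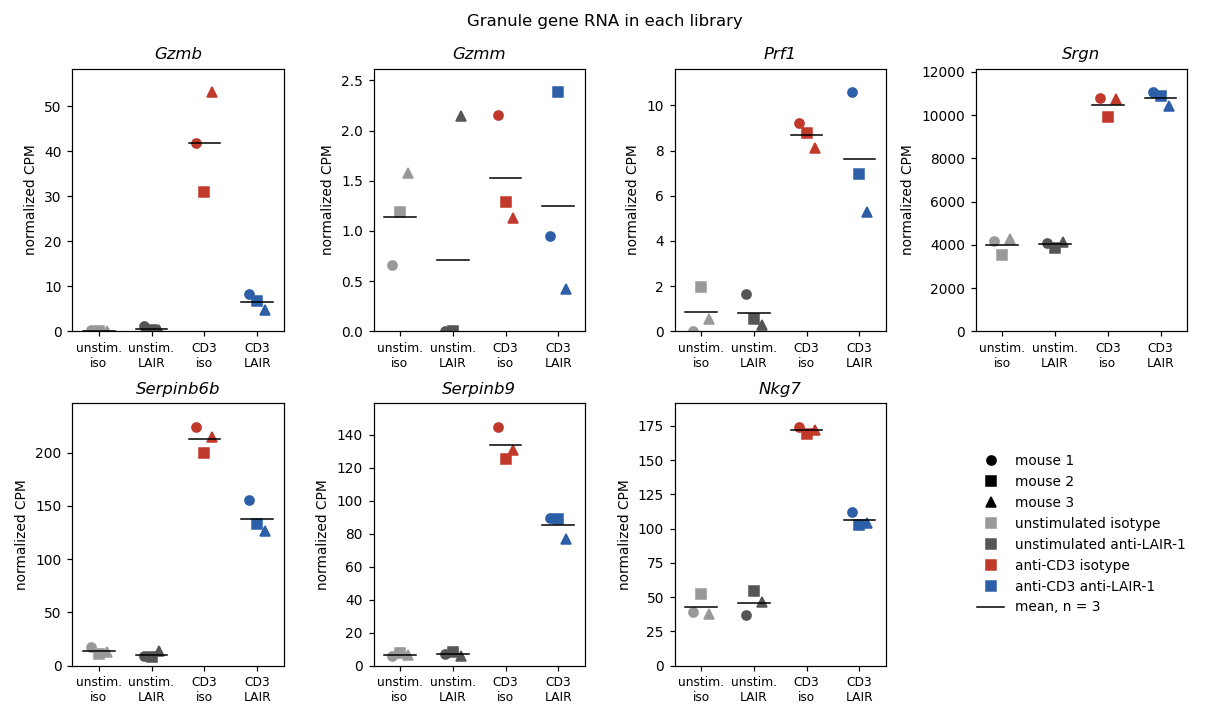
Normalized CPM (vertical axes, each starting at 0) of the 7 measured granule genes in the 12 libraries, by group (horizontal axis, unstim. for unstimulated, iso for isotype, LAIR for anti-LAIR-1), with 1 symbol per mouse and a line at the mean of 3 mice. Gzmb, Serpinb6b, Serpinb9 and Nkg7 show no overlap between the anti-CD3 groups, whereas Srgn, Prf1 and Gzmm do.

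Gzmm, a granzyme that cleaves after methionine and leucine and is best known from NK cells, stayed at 14 counts or fewer in every library. Its counts were 2, 3 and 3 in unstimulated isotype, and 0, 0 and 8 in unstimulated anti-LAIR-1 libraries. With anti-CD3 they were 7, 6 and 7 under isotype and 7, 14 and 2 under anti-LAIR-1. All 4 groups overlapped. The gene fell under the filter on low counts in all 5 comparisons, and the ratio of anti-LAIR-1 to isotype with anti-CD3 was 0.901 with a 95% counting interval of 0.473 to 1.73. A difference within these bounds was not detectable at this depth, and the bounds leave out the spread between mice.

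Prf1, which encodes perforin, was likewise near the limit without anti-CD3, at 0, 1.98 and 0.526 CPM with isotype and 1.65, 0.526 and 0.268 CPM with anti-LAIR-1. With anti-CD3 it reached 9.22, 8.79 and 8.10 CPM with isotype and 10.6, 6.97 and 5.29 CPM with anti-LAIR-1. The anti-CD3 groups overlapped, since mouse 1 was higher with anti-LAIR-1 and mice 2 and 3 were lower. The log2 fold change was -0.14 (SE 0.26, 95% interval -0.68 to 0.40, edgeR adjusted p = 0.826), an interval that covers changes in either direction but does not reach that of Gzmb (-3.11 to -2.19). Between anti-CD3 and unstimulated cells Prf1 rose 9.78-fold with isotype (log2 3.29, SE 0.56) and 9.25-fold with anti-LAIR-1 (log2 3.21, SE 0.50). Prf1 passed the filter on low counts only through its stimulated libraries, so this rise was a condition of being tested.

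Srgn was abundant in all libraries. It measured 4197, 3510 and 4268 CPM in unstimulated isotype and 4083, 3837 and 4137 CPM in unstimulated anti-LAIR-1 cells. With anti-CD3 it measured 10769, 9916 and 10764 CPM with isotype and 11048, 10900 and 10400 CPM with anti-LAIR-1. The stimulated libraries stood clear of the unstimulated ones, whereas isotype and anti-LAIR-1 overlapped at both states. Srgn rose 2.49-fold with isotype (log2 1.32, SE 0.08, edgeR adjusted p = 1.07e-12) and 2.65-fold with anti-LAIR-1 (log2 1.41, SE 0.06, edgeR adjusted p = 7.35e-14). The log2 difference between anti-LAIR-1 and isotype was 0.05 with anti-CD3 (95% interval -0.08 to 0.17) and -0.01 without (95% interval -0.17 to 0.15), neither of which passed the test. For this gene the intervals were narrow, because the coefficient of variation within groups was only 3.15 to 10.5%.

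The genes of both inhibitors, which lie 24182 bases apart on chromosome 13 (mm10, Serpinb6b at 32965209 to 32979067 and Serpinb9 at 33003250 to 33017957, both on the plus strand), had similar fold differences in stimulated cells. Serpinb9 is the mouse inhibitor of granzyme B, and Serpinb6b is a close relative within the same clade. Serpinb6b measured 224, 199.6 and 215 CPM with anti-CD3 and isotype and 155, 133 and 126 CPM with anti-CD3 and anti-LAIR-1. Serpinb9 measured 145, 125 and 131 CPM with anti-CD3 and isotype and 89.7, 88.9 and 77.0 CPM with anti-CD3 and anti-LAIR-1. For both genes, no anti-LAIR-1 library reached the level of any isotype library once anti-CD3 was present. Serpinb6b was 1.53-fold lower with anti-LAIR-1 (log2 fold change -0.62, SE 0.09, edgeR adjusted p = 0.000281) and Serpinb9 was 1.55-fold lower (log2 -0.64, SE 0.09, edgeR adjusted p = 0.000333).

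Without anti-CD3 these inhibitor genes were low but clearly detected. Serpinb6b measured 17.3, 10.7 and 13.1 CPM with isotype and 9.10, 8.16 and 13.7 CPM with anti-LAIR-1, and the groups overlapped (log2 -0.44, 95% interval -1.01 to 0.13). Serpinb9 measured 5.64, 7.53 and 6.31 CPM with isotype and 7.17, 8.42 and 6.16 CPM with anti-LAIR-1, and again the groups overlapped (log2 0.14, 95% interval -0.54 to 0.83). Both rose steeply on stimulation. Serpinb9 was 19.5-fold higher with anti-CD3 and isotype (log2 4.28, SE 0.17, edgeR adjusted p = 3.97e-16) and 11.6-fold higher with anti-CD3 and anti-LAIR-1 (log2 3.54, SE 0.16, edgeR adjusted p = 1.86e-13). Serpinb6b was 14.5-fold and 13.3-fold higher in the same comparisons (log2 3.86 and 3.73, edgeR adjusted p = 2.1e-16 and 8.74e-14).

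Nkg7, the granule membrane protein, was the member with the closest replicates under anti-CD3 and isotype. It measured 174, 169 and 172 CPM there and 112, 103 and 104 CPM once anti-LAIR-1 was added. In unstimulated cells it measured 39.2, 52.3 and 37.9 CPM with isotype and 36.9, 54.2 and 46.3 CPM with anti-LAIR-1. The anti-CD3 groups did not overlap, whereas the unstimulated groups did. In stimulated cells Nkg7 was 1.61-fold lower with anti-LAIR-1 (log2 fold change -0.69, SE 0.08, edgeR adjusted p = 3.68e-05), and the log2 difference was -0.63, -0.72 and -0.73 in the 3 mice. It rose 3.77-fold with anti-CD3 and isotype (log2 1.91, SE 0.13, edgeR adjusted p = 4.11e-12) and 2.29-fold with anti-CD3 and anti-LAIR-1 (log2 1.20, SE 0.12, edgeR adjusted p = 3.55e-08).

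Taken over the group in stimulated cells, 4 of the 6 members that passed the filter on low counts were lower with anti-LAIR-1 and 0 were higher. Across all genes tested, 1.86% were lower, 3.9% were higher and 5.76% changed in either direction. The same 4 genes had groups that did not overlap, which held for 12.1% of all genes in that direction. The median log2 fold change of the 6 was -0.63, against 0.00 over all genes. Beside this, the summed naive markers were higher with anti-LAIR-1, at 1789 to 2051 CPM against 1452 to 1550 CPM with isotype. Whether their movement has a part in the granule gene values was not tested.

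**Figure D2:**
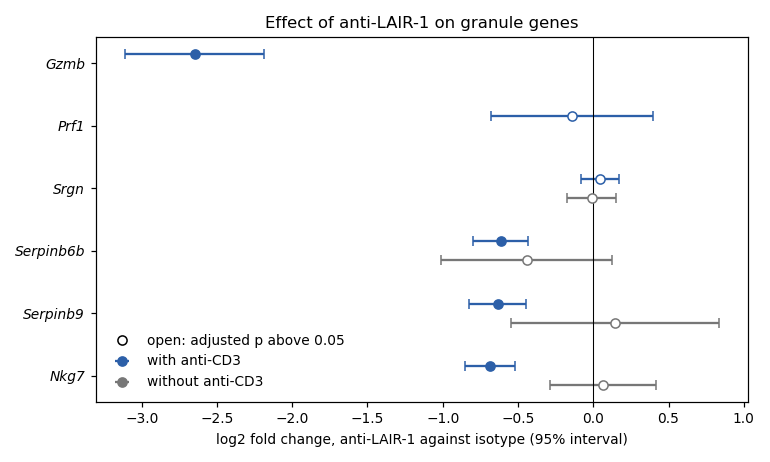
Log2 fold change of anti-LAIR-1 against isotype (horizontal axis) with its 95% interval for each granule gene tested (vertical axis), with anti-CD3 in blue and without in grey, filled where the edgeR adjusted p was under 0.05. Gzmb lies at -2.65 and the other 3 filled points between -0.69 and -0.62, while Prf1 and Srgn span 0 and all grey points are open.

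Without anti-CD3, 4 members passed the filter (Srgn, Serpinb6b, Serpinb9 and Nkg7), 0 passed the edgeR test, and the share of all 8770 genes that passed was 0%. At an unadjusted p under 0.05, edgeR gave 384 genes (4.38%), none of them a member, and DESeq2 gave 0 genes after adjustment. Nkg7, as an example, had a log2 difference of 0.06 with a 95% interval of -0.29 to 0.42. Gzmb and Prf1 had too few counts to be compared in resting cells.

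On stimulation all 6 members tested rose, both with isotype and with anti-LAIR-1. Many genes did so, as 35.3% of all genes tested were higher with isotype and 36.4% with anti-LAIR-1, while 36.1% and 36.3% were lower and 71.3% and 72.7% changed in either direction. Gzmb and Prf1 entered these comparisons only through their counts in stimulated cells, so that for this pair a rise was a condition of being tested. Srgn, Serpinb6b, Serpinb9 and Nkg7 were well above the filter in both states.

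The difference between the anti-LAIR-1 effects with and without anti-CD3 was then tested as an interaction over the 12 libraries. Of the 6 members tested, 1 passed, against 0.249% of 9223 genes in the lower direction and 2.07% in either. This was Nkg7, with an interaction of -0.75 on the log2 scale (SE 0.18, edgeR adjusted p = 0.0256), negative in 3 of 3 mice at -0.55, -0.77 and -1.01. This call was lost when any 1 of 9 libraries was left out (adjusted p = 0.0504 to 0.0949 by edgeR), and it was kept without unstimulated isotype mouse 2, unstimulated anti-LAIR-1 mouse 1 or anti-CD3 anti-LAIR-1 mouse 1 (0.00766 to 0.0279). With all libraries thinned to the depth of the smallest it was -0.48 (edgeR adjusted p = 0.334). Gzmb had an interaction of -4.42 (SE 1.39, edgeR adjusted p = 0.0854) and Serpinb9 of -0.78 (SE 0.27, edgeR adjusted p = 0.158), each negative in 3 of 3 mice but neither past the test. The unstimulated side of the Gzmb value rested on 1, 0 and 0 counts with isotype and 4, 1 and 1 with anti-LAIR-1. With so few counts there, its size is uncertain and its sign follows the difference in stimulated cells. The interaction of Serpinb6b was -0.16 with a 95% interval of -0.67 to 0.35, that of Prf1 was -0.12 (-2.15 to 1.90) and that of Srgn was 0.06 (-0.14 to 0.26). The Prf1 value likewise rested on 0 to 6 counts in each unstimulated library. For the members other than Nkg7, a dependence of the anti-LAIR-1 effect on anti-CD3 was not shown.

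To place the members on 1 scale, the CPM gained with anti-CD3 under anti-LAIR-1 was taken as a percentage of the CPM gained with isotype in the same mouse. Gzmb gained 17.3, 20.6 and 8.26% of its isotype gain. Nkg7 gained 55.9, 41.5 and 42.8%, Serpinb9 gained 59.3, 68.4 and 57.0%, and Serpinb6b gained 70.5, 66.0 and 55.8%. Prf1 gained 96.7, 94.7 and 66.3%, and Srgn gained 106, 110.3 and 96.4%. The Prf1 percentages depend on unstimulated counts near the limit of detection. In mouse 1 these were 6 with anti-LAIR-1 and 0 with isotype, while Prf1 with anti-CD3 was at 10.6 and 9.22 CPM. In each mouse Gzmb kept the smallest percentage and Srgn the greatest, whereas the ranges of Serpinb9 and Serpinb6b overlapped with each other. These percentages share the isotype libraries with the fold changes above and are a description of the same values.

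**Figure D3:**
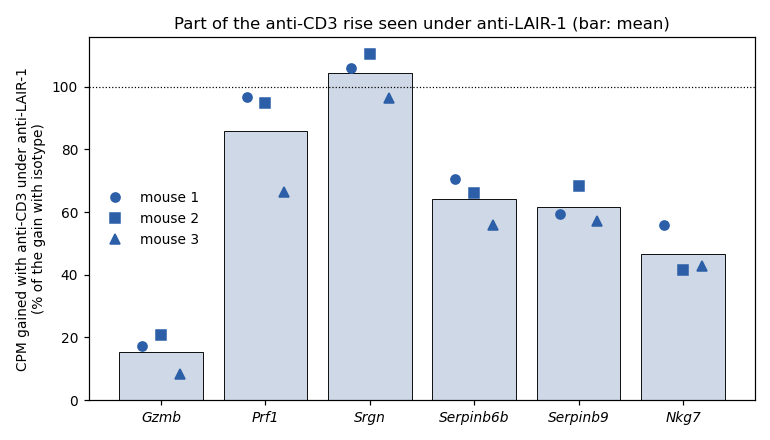
CPM gained with anti-CD3 under anti-LAIR-1, as a percentage of the gain with isotype in the same mouse (vertical axis), for 6 granule genes (horizontal axis), with 1 symbol per mouse, bars at the mean of 3 mice and a dotted line at 100%. Gzmb averaged 15.4 ± 6.40%, Nkg7 46.8 ± 7.97%, Serpinb9 61.6 ± 6.01%, Serpinb6b 64.1 ± 7.53%, Prf1 85.9 ± 17.0% and Srgn 104 ± 7.09% (SD, n = 3). The Prf1 percentages depend on unstimulated counts near the limit of detection.

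The balance between granule genes was also compared inside each library, where the scaling of libraries cancels. Gzmb gave 4.53, 3.51 and 6.56 counts per Prf1 count with anti-CD3 and isotype, and 0.782, 0.951 and 0.88 once anti-LAIR-1 was present. Against its inhibitor, Gzmb gave 0.289, 0.247 and 0.407 counts per Serpinb9 count with isotype and 0.0921, 0.0746 and 0.0604 with anti-LAIR-1. Both ratios were lower in every anti-LAIR-1 library, with an exact two-sided permutation p = 0.1, the smallest that 3 against 3 libraries can give, and 0.167 after adjustment over 5 ratios. By contrast, Serpinb9 per Serpinb6b count was 0.645, 0.627 and 0.606 with isotype and 0.578, 0.670 and 0.609 with anti-LAIR-1, and these overlapped (exact permutation p = 0.9). Nkg7 per Prf1 count was 18.9, 19.2 and 21.3 with isotype and 10.6, 14.7 and 19.6 with anti-LAIR-1, overlapping through mouse 3 (exact permutation p = 0.3). The Gzmb ratios lay apart between the stimulated groups in all 3 mice, and the serpin ratio did not. These ratios were chosen after the values had been seen, and the permutations did not use the pairing by mouse. They rest on the same counts as the fold changes above, describe them again and are no separate support.

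**Figure D4:**
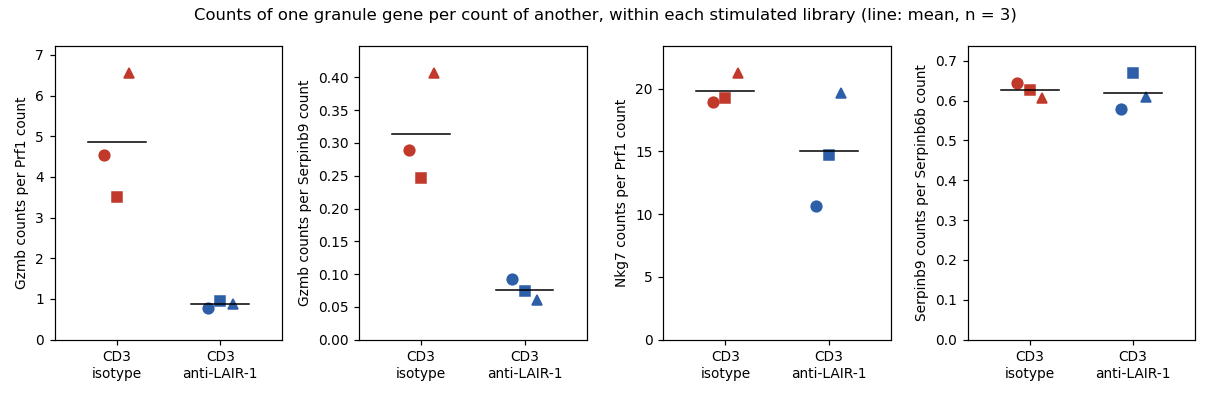
Counts of 1 granule gene per count of another (vertical axes, each starting at 0) in the anti-CD3 libraries with isotype (red) and anti-LAIR-1 (blue), with circles, squares and triangles for mice 1, 2 and 3 and a line at the mean. Gzmb per Prf1 lay at 3.51 to 6.56 with isotype and at 0.782 to 0.951 with anti-LAIR-1, and Serpinb9 per Serpinb6b overlapped.

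The other genes of the granule pathway, listed by function, were then compared. Of 33 listed genes 24 were measured, and of 20 tested in stimulated cells 1 was higher and 0 were lower, with a median log2 fold change of 0.12. Since 5.76% of all genes passed in either direction, this share was near the background. The 1 gene was Sytl2, a granule docking protein, at 2.51 ± 0.806 CPM with isotype and 6.06 ± 1.78 CPM with anti-LAIR-1 (SD, n = 3, log2 1.26, SE 0.35, edgeR adjusted p = 0.0426). Its call rested on few counts and was lost when any 1 library except anti-CD3 isotype mouse 2 was left out (edgeR adjusted p = 0.0534 to 0.189), as well as with DESeq2 (adjusted p = 0.071). Without anti-CD3, 0 of 20 passed in either direction, and 0 of 21 passed the interaction, which 2.07% of all genes did.

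With anti-CD3 and isotype, 4 of 19 tested genes of the pathway rose and 9 fell, where 35.3% of all genes rose and 36.1% fell, with a median log2 fold change of -0.70 against -0.03 over all genes. Those that rose were the granzyme-activating protease Ctsc (1.45-fold), its inhibitor cystatin F, Cst7 (4.88-fold), the sorting receptor M6pr (3.56-fold) and the fusion protein Stx11 (6.00-fold). Cst7, for instance, went from 12.3 ± 0.934 to 62.8 ± 7.33 CPM (SD, n = 3). The 9 that fell included genes of granule release, namely Unc13d at log2 -1.81, Stxbp2 at -0.70 and Vamp8 at -1.84. The cathepsins Ctsb, Ctsl and Ctsw fell by 1.39, 0.94 and 0.73 on the log2 scale, and Igf2r and Ap3b1, which sort proteins to lysosomes, were at -0.74 and -0.82. With anti-LAIR-1 the same 9 genes fell, and 6 rose, since Lamp2 and Sytl2 were added to those 4.

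Serpinb6a, the relative of Serpinb6b with wide expression among tissues, moved in the direction opposite to it with anti-CD3. It fell from 29.0 ± 3.43 CPM in unstimulated isotype to 4.23 ± 0.819 CPM in anti-CD3 isotype libraries (SD, n = 3, log2 -2.85, SE 0.25, edgeR adjusted p = 3.61e-10), while Serpinb6b rose. In anti-CD3 anti-LAIR-1 libraries it measured 6.70 ± 2.44 CPM, which did not pass the test against isotype (log2 0.64, edgeR adjusted p = 0.284). Shared sequence was checked on GENCODE transcripts, and 0 of the 60-base windows in the last 500 bases of any member occurred letter for letter in another gene. For Serpinb6a 5 of 2091 such windows did, in Serpinb6c and Gm8436 and not in Serpinb6b. Reads that align with mismatches, or to other transcripts in the authors' reference, were not covered by this check.

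**Figure D5:**
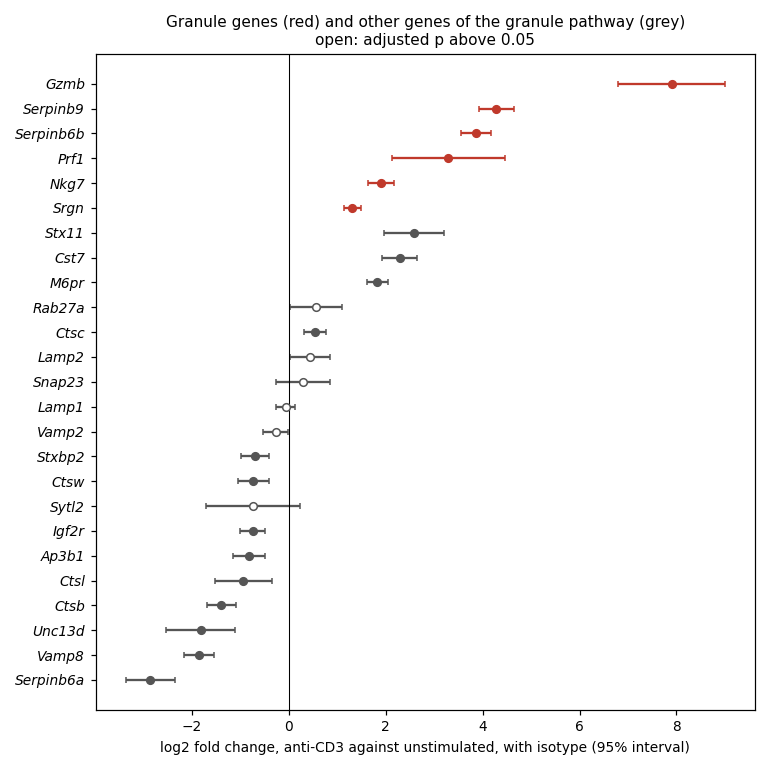
Log2 fold change of anti-CD3 against unstimulated with isotype (horizontal axis) and its 95% interval for the 6 granule genes tested (red) and 19 other genes of the pathway (grey), open where the edgeR adjusted p was above 0.05. All red points lie above 0, with Gzmb resting on 1 unstimulated count, and grey points run from Stx11 at 2.59 to Serpinb6a at -2.85. Gzmb and Prf1 passed the filter on low counts only through stimulated libraries, so their rise was a condition of being tested.

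Of 7 other granzymes only Gzmc was measured, a neighbour of Gzmb on chromosome 14 with 24181 bases between them. Gzmc had 0 counts in the 6 unstimulated libraries. It had 16 counts over the 3 anti-CD3 isotype libraries (2, 2 and 12 in mice 1, 2 and 3). Over the 3 anti-CD3 anti-LAIR-1 libraries it had 27 (11, 4 and 12). Between the anti-CD3 groups the ratio of anti-LAIR-1 to isotype was 1.32 with a 95% counting interval of 0.687 to 2.63. The same ratio of Gzmb lay below 1 throughout its interval. Both intervals leave out the spread between mice, which for Gzmc was wide.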

How the data were processed

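RNA from 12 libraries (4 groups of 3 mice) was measured. The authors deposited whole-number counts per gene from an adapted CEL-seq protocol, with BWA MEM alignment of read 2 to the mm10 transcriptome and MapAndGo as the counter. Reads with more than 1 best position were left out. The submitters' processing notes name BWA and mm10. Whether molecular identifiers were collapsed is not given in the sources used here, so counts may include PCR copies, and counting intervals (95%) cover counting error only. A 3' method reads the last exons and gives no level per gene length, so absolute levels were not compared between genes. The within-library ratios of granule genes were compared only between groups.

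Groups and mouse numbers were taken from the labels. Raw counts were filtered with filterByExpr, scaled by TMM and tested with edgeR 4.0.16 (R 4.3.3) quasi-likelihood F-tests on the 6 libraries of each comparison, or on all 12 for the interaction, with Benjamini-Hochberg adjustment over all genes tested and a threshold of 0.05. Standard errors and intervals were derived from the fold change and its F statistic. CPM were scaled over the 12 libraries, and per-mouse log2 differences used a prior count of 2. A limit of detection of 3 counts was used. Ratios within libraries were compared with exact two-sided permutation tests. Replicates were checked for copies and none was found. The procedure was tested on simulated counts.

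All 8 members are named. Of the pathway lists (granzymes, cathepsins and cystatin F, sorting, release, serpins, and transcription factors) genes past the threshold are named. Members, lists and tests were chosen with earlier results of these data known, and the within-library ratios, percentages of gain and promoter windows were added after the values had been seen. Alternatives were DESeq2 1.42.0, its size factors, upper quartile scaling, a replicate block, no filter and a stricter one (10 counts), 1 fit over 12 libraries, libraries thinned to the smallest, and each library left out in turn. The study's methods and the labels show that libraries with the same number came from the same mouse, so the numbers pair the samples. In the 4 pairwise comparisons the deviations of the paired libraries correlated at -0.00527 to 0.105. Promoters were read from RefSeq (GRCm38.p6) and gene coordinates from GENCODE. The results of 1 marker gene are not reported here.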

Additional observations from a re-analysis of the deposited data

Results flagged for a closer look

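The interaction of anti-CD3 and anti-LAIR-1 on Nkg7 passed the test, at -0.75 on the log2 scale (SE 0.18, edgeR adjusted p = 0.0256). The log2 effect was -0.69 with anti-CD3 and 0.06 without, and the interaction was negative in 3 of 3 mice. It passed in 10 of 20 alternatives, and was lost when any 1 of 9 libraries was left out (edgeR adjusted p = 0.0504 to 0.0949) and after thinning (0.334). Groups of 3 libraries are too small for a test of single outlying libraries.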

How the results depend on the processing

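The number of members called was 4, 0, 6 and 6 in the 4 pairwise comparisons and stayed so when each library was left out (4 to 4, 0 to 0, 6 to 6 and 6 to 6). With at least 10 counts required in every library it was 4 in both comparisons of anti-CD3 with unstimulated cells, since Gzmb and Prf1 were not tested, and the other alternatives left the 4 counts as they were. For the interaction it was 1, and 2 with DESeq2 with the replicate block and without the filter on low counts (Gzmb and Nkg7), 0 after thinning, and 0 to 1 when each library was left out. With the replicate block in edgeR the Nkg7 interaction was -0.74 (adjusted p = 0.0258) and no call on a member changed. After thinning it was -0.48 (adjusted p = 0.334), and its adjusted p ranged from 0.00133 to 0.334 over all alternatives. Of 619 alternative values of single genes, 585 kept direction and side of the threshold, 18 lost it, 3 gained it and 13, none past the threshold, changed sign. Those were the Nkg7 difference without anti-CD3 after thinning (-0.046) and when a library was left out (-0.076 to 0.24), the Srgn difference without anti-CD3 (-0.087 to 0.047), the Prf1 difference with anti-CD3 (-0.48 to 0.036), and the interactions of Prf1 (-1.99 to 0.85) and Serpinb6b (-0.39 to 0.091), each over libraries left out in turn. The 4 members lower with anti-LAIR-1 passed in 15 of 15 alternatives (Gzmb log2 -2.87 to -2.43, Nkg7 -0.73 to -0.66).

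Over all genes, the comparison of anti-LAIR-1 with isotype under anti-CD3 gave 507 genes, and 239 with DESeq2 with the replicate block, 293 without anti-CD3 isotype mouse 2, and 315 and 334 without anti-CD3 anti-LAIR-1 mice 2 and 3. The share that was higher went from 67.7 to 79.8% in 1 fit over 12 libraries. The interaction gave 191 genes, 109 after thinning and 103 to 186 with a library left out. Without anti-CD3 it was 0 genes, 5 without the filter and 1 without unstimulated anti-LAIR-1 mouse 2. Upper quartile scaling moved the median log2 fold change of all genes with anti-CD3 from -0.03 to -0.20 (isotype) and from -0.04 to -0.24 (anti-LAIR-1), and all 6 members still rose. The unstimulated isotype libraries had the fewest counts, which limits Gzmb, Prf1 and Gzmm there.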

Other observations

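Transcription factors known to drive cytotoxic genes were listed as 9 genes. In stimulated cells 8 were tested, and 0 passed the edgeR test between anti-LAIR-1 and isotype, while 5.76% of all genes did. Eomes measured 44.2 ± 4.83 CPM with isotype and 33.0 ± 4.79 CPM with anti-LAIR-1 (SD, n = 3, log2 -0.39, edgeR adjusted p = 0.0964). It passed in 1 of 15 alternatives. Tbx21, which encodes T-bet, had 93 counts over the 3 anti-CD3 isotype libraries and 87 over the 3 deeper anti-CD3 anti-LAIR-1 libraries. These equal 6.66 ± 0.354 and 4.61 ± 1.57 CPM (SD, n = 3, log2 -0.48, edgeR adjusted p = 0.39). Over the unstimulated isotype libraries Tbx21 had 0 counts. With anti-CD3 against unstimulated cells, 3 of 8 factors tested were higher (Tbx21, Irf4 and Stat5a) and 4 were lower (Runx3, Id2, Batf and Stat5b). The same genes passed with isotype and with anti-LAIR-1. Of all genes, 35.3% and 36.4% were higher and 36.1% and 36.3% lower in these comparisons. Tbx21 passed the filter on low counts only through stimulated libraries, so its rise was a condition of being tested.

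The genes whose log2 CPM followed each member most closely over the 12 libraries are given as a description, since the points are the same libraries and fall into unstimulated and stimulated sets. For Gzmb these were Ubxn2a (Pearson r = 0.978), Cish (0.977) and Pmpcb (0.975). Cish, a cytokine-induced SOCS family gene, averaged 85.6 CPM with anti-CD3 and isotype and 25.2 CPM with anti-CD3 and anti-LAIR-1. For Nkg7 these were Dnajc11 (0.983), Pomt2 (0.980) and Il2 (0.979), for Prf1 Pecr (0.980), Grasp (0.979) and Nbn (0.978), and for Srgn Ncs1 (0.998), Txnl1 (0.998) and Atp5g1 (0.997). Serpinb6b was nearest to Eef1g, Nop16 and Nhp2, and Serpinb9 to Psmc6, Ddx27 and Slc16a1, each at 0.997.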
